A study of Mus musculus with 16 samples.

Results

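The mitochondrial genome transcripts measured here were all genes whose name begins with mt- in the deposited expression table, 37 of 56268 genes. They comprised 13 messenger RNAs, 2 ribosomal RNAs and 22 transfer RNAs, every RNA gene of the mouse mitochondrial chromosome. They were measured by RNA sequencing of total RNA in 16 libraries labelled as colonic epithelial cells, 4 in each of 4 groups. The cKO_DSS group carried floxed Rictor with Villin-Cre and received 3% dextran sulfate sodium (DSS), a detergent-like polymer that injures the colon lining, in the drinking water. The WT_DSS group carried Villin-Cre alone and received 3% DSS. The cKO group carried floxed Rictor with Villin-Cre on normal water, and the WT group carried Villin-Cre alone on normal water. Villin-Cre, which acts in intestinal epithelium, was thus present in all 4 groups, and Rictor encodes a defining subunit of the kinase complex mTORC2. The labels give neither the age nor the sex of the mice, the length of DSS exposure, nor whether the 4 libraries of a group came from separate animals, so p-values measure the spread between these libraries.

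Mitochondrial DNA is transcribed from both strands into long precursors that cover many genes. Transfer RNAs lie between most of the other genes, and their excision by RNase P and ELAC2 releases the messenger and ribosomal RNAs. The messenger RNAs encode membrane subunits of respiratory complexes I, III and IV and of ATP synthase, and the ribosomal RNAs form the cores of the mitochondrial ribosome. mt-Nd6 is the messenger RNA carried by the opposite strand to the others. In the colon, mature absorptive cells use mitochondrial oxidation of short-chain fatty acids as a main source of energy.

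Copies of parts of this genome lie in nuclear chromosomes, and reads from the original and the copy cannot be told apart where the letters are the same. Stretches are shown here for a messenger RNA with an identical nuclear copy, for one whose copy differs in a single base, for one without a copy, and for the most abundant transfer RNA. All are written 5′ to 3′ from the GENCODE M21 transcripts (build GRCm38, which is mm10).

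The first 90 bases of mt-Co2 (chrM:7013-7102, plus strand) and of its copy Gm28661 (chr1:24615476-24615565, minus strand) held the same letters.
mt-Co2: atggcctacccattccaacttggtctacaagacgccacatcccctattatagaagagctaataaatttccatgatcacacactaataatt
Gm28661: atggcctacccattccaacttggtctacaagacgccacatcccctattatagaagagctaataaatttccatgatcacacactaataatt

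The first 90 bases of mt-Nd3 (chrM:9459-9548, plus strand) and of its copy Gm28438 (chr1:24613030-24613119, minus strand) differed by T3C, counted from the first base of the gene. The capital marks that base.
mt-Nd3: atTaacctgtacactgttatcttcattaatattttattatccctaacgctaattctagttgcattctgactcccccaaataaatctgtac
Gm28438: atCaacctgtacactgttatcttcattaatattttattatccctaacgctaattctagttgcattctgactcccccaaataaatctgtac

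The first 90 bases of mt-Cytb (chrM:14145-14234, plus strand) and the whole of mt-Tp (chrM:15356-15422, minus strand), the proline transfer RNA, had no match of 50 bases in any other annotated transcript. The capitals in mt-Tp mark the middle 3 bases of its 7-base anticodon loop.
mt-Cytb: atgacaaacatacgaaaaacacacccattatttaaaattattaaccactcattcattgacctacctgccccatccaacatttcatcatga
mt-Tp: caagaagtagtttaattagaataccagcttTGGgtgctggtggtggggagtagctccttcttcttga

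Levels are given as FPKM, fragments per unit of gene length and of sequencing depth, which the authors computed and which allow genes of different length to be compared. FPKM multiplied by gene length returned whole read numbers in every library, 13911823 to 16414914 reads per library. The messenger RNAs held 97.3% of the mitochondrial reads of all libraries together, the ribosomal RNAs 2.65% and the transfer RNAs 0.0952%. mt-Co1, the catalytic core of complex IV, was by far the most abundant at a mean of 29540 FPKM over the 16 libraries, followed by mt-Cytb, the core of complex III, at 11993 FPKM and mt-Nd1, a complex I subunit of the membrane arm, at 6516 FPKM. The other complex I members mt-Nd4, mt-Nd2, mt-Nd5 and mt-Nd6 had mean levels of 3684, 3377, 1918 and 1754 FPKM. The 2 ribosomal RNAs were at 942 FPKM for mt-Rnr1, the small-subunit RNA, and 797 FPKM for mt-Rnr2, the large-subunit RNA, below the 7 most abundant messenger RNAs. These are levels in the sequenced libraries and need not be the proportions in the cells. How library preparation acted on ribosomal, transfer and messenger RNAs was not tested. At the low end, mt-Co3, mt-Atp6 and mt-Co2 were at means of 384, 349 and 299 FPKM, mt-Nd4l and mt-Nd3 at 49.9 and 38.9 FPKM, and mt-Atp8 at 5.09 FPKM.

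**Figure D1:**
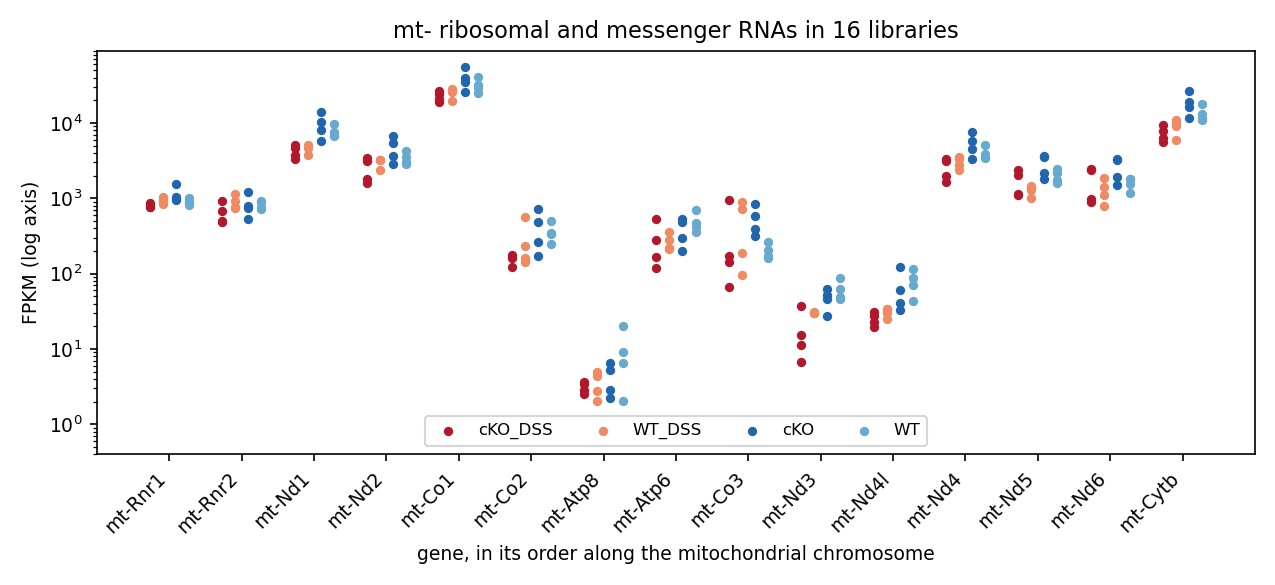
FPKM (log axis) of the 13 messenger RNAs and 2 ribosomal RNAs in every library, in gene order along the mitochondrial chromosome, coloured by group. mt-Co1 lies highest in all groups, and mt-Atp8, mt-Nd3 and mt-Nd4l lie lowest.

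The 5 messenger RNAs whose sequence is repeated almost entirely in annotated nuclear genes all had low levels. Of their 50-base windows, 98.0% to 100% occurred in another GENCODE transcript, and their means spanned 38.9 to 384 FPKM. They were mt-Co2, mt-Co3, mt-Atp6, mt-Nd3 and mt-Nd4l, and their copies lie next to each other on chr1 between positions 24612407 and 24615565. mt-Nd4 and mt-Co1, repeated over 62.2% and 51.1% of their windows, had 3684 and 29540 FPKM. mt-Nd1, mt-Cytb, mt-Nd6, mt-Atp8 and mt-Rnr1 shared no window with another annotated transcript, and except for mt-Atp8 their means were 942 FPKM or more. Copies outside annotated transcripts were not searched for. mt-Atp8 lies between mt-Co2 and mt-Atp6, whose copies are at chr1:24614885-24615565 and chr1:24613974-24614651. Whether the sequence between these copies repeats mt-Atp8 was not tested. The values of the 5 repeated genes are therefore uncertain as levels, since no source used here says how reads with several matches were counted. The copies themselves were listed with reads of their own: 3635 to 24133 reads per library over the annotated copies, 0.0234% to 0.170% of all reads. mt-Atp8 overlaps mt-Atp6 by 43 bases, which is another way in which its reads could be assigned elsewhere, and this was not tested.

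**Figure D2:**
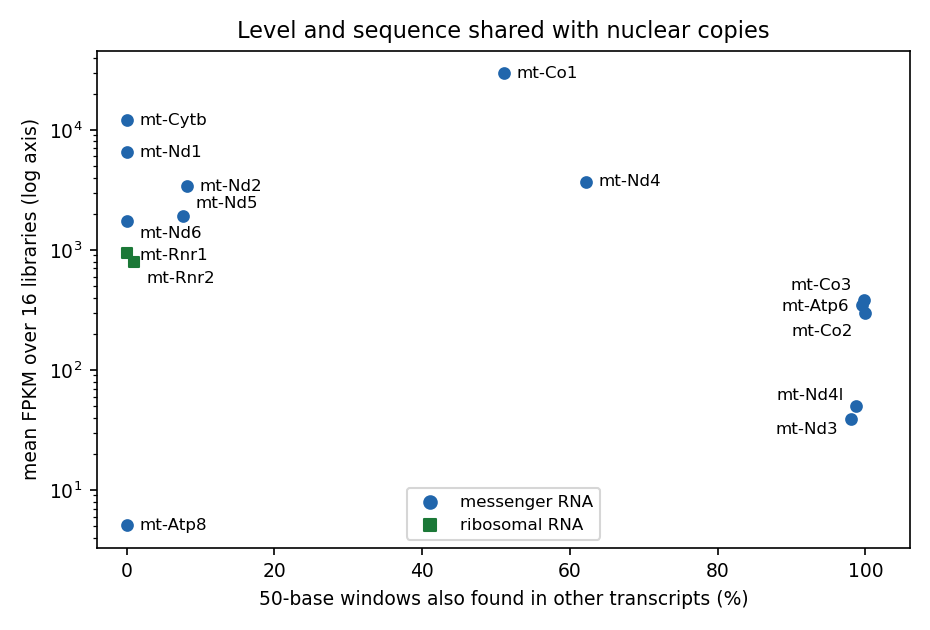
Mean FPKM over 16 libraries (log axis) against the percentage of a gene's 50-base windows that also occur in another annotated transcript, for 13 messenger RNAs (circles) and 2 ribosomal RNAs (squares). The 5 genes at the right, between 98.0% and 100%, all lie at or below 384 FPKM. mt-Atp8 is low without a window shared with another annotated transcript, and sequence outside annotated transcripts was not searched.

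Of the 22 transfer RNAs, 9 had reads in all 16 libraries, and mt-Tf, mt-Td and mt-Tk had 0 reads in every library, where a count of 0 allows up to 3 reads. mt-Tp stood above the other transfer RNAs at 13951 reads in all. The 16 transfer RNAs that passed the filter of at least 1 FPKM in at least 4 libraries included genes such as mt-Tq with 10 reads in total, because a single read of so short a gene is worth about 1 FPKM. Low transfer RNAs were accordingly measured with little precision.

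Several measures of the whole libraries moved with the groups. The 10 epithelial markers were all detected, with summed levels of 13941 to 14860 FPKM in cKO_DSS, 11072 to 12268 in WT_DSS, 10955 to 14794 in cKO and 10100 to 12805 in WT libraries. Rictor FPKM over the whole gene was 2.51 ± 0.464 in cKO_DSS against 3.63 ± 0.572 in WT_DSS libraries and 2.47 ± 0.238 in cKO against 2.80 ± 0.442 in WT libraries (SD, n = 4 each), with ranges that overlapped within both pairs. The sources used here do not name the deleted exons, so the value over the whole gene is a weak check of the genotype. The libraries cKO_DSS 3 and cKO_DSS 4 stood apart from the other libraries of their group on the second principal component. Xist, the RNA of the inactive X chromosome, had 0 to 7 reads in 7 of the 8 DSS libraries, 5275 reads in WT_DSS 2 and 10022 to 25600 reads in the water libraries. The Y-linked gene Ddx3y had 685 to 1446 reads in DSS libraries and 0 to 498 reads in water libraries. Some single libraries held both RNAs. WT 1, WT 2, WT 4, cKO 1, cKO 2 and WT_DSS 2 each had at least 5275 Xist reads and at least 145 Ddx3y reads. Ddx3y had 0 reads in WT 3, cKO 3 and cKO 4. Whether such libraries mixed RNA of several mice was not tested. An effect of DSS and a difference in the sex of the mice cannot be told apart here. The nuclear-retained RNA Malat1 fell in cKO_DSS against cKO by 0.95 on the log2 scale (limma adjusted p = 0.00472) and in WT_DSS against WT by 0.86 (adjusted p = 0.00674). Neat1, also nuclear, fell in WT_DSS against WT (adjusted p = 0.00233) and differed by -0.26 in cKO_DSS against cKO (adjusted p = 0.392). Of 12 immediate early genes, 8 (66.7%) fell in WT_DSS against WT, where 28.5% of all genes were called and 13.5% were called lower. In cKO_DSS against WT_DSS 7 of the 12 (58.3%) rose, where 3.70% of all genes were called. In cKO_DSS against cKO and in cKO against WT 0 were called, where 14.7% and 0.0905% of all genes were called. The part of any of these RNAs in the results was not tested.

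Mitochondrial genes took a smaller share of the reads in every DSS library than in any water library, and no difference between genotypes passed the test. Shares were 6.74, 6.95, 4.74 and 5.40% of all reads in the cKO_DSS libraries, against 7.67, 10.2, 15.1 and 11.8% in the cKO libraries. They were 7.34, 7.33, 6.59 and 5.56% in the WT_DSS libraries, against 8.19, 7.66, 8.91 and 11.3% in the WT libraries. The 8 DSS libraries spanned 4.74 to 7.34% and the 8 water libraries 7.66 to 15.1%. The 95% Wilson interval of any such share reached at most 0.0186 percentage points to either side, which covers counting error only.

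In cKO libraries the mean share was 5.96 ± 1.07% with DSS and 11.2 ± 3.13% on water (SD, n = 4 each), a difference of -5.23 percentage points. In Villin-Cre controls it was 6.71 ± 0.840% with DSS and 9.01 ± 1.61% on water, a difference of -2.31 percentage points. Each had p = 0.0286 in an exact two-sided permutation test, the smallest p that 4 against 4 libraries allow, and 0.0714 after Benjamini-Hochberg adjustment over the 5 comparisons made. Without DSS the share was 11.2 ± 3.13% in cKO and 9.01 ± 1.61% in WT libraries, 2.18 percentage points higher, and with DSS it was 5.96 ± 1.07% in cKO_DSS and 6.71 ± 0.840% in WT_DSS libraries, 0.749 percentage points lower in cKO_DSS by the means. These genotype differences had exact permutation p of 0.286 and 0.257. The difference between the 2 DSS effects was -2.93 percentage points with an exact permutation p of 0.135. With the library size implied by the FPKM scale as the denominator, the groups overlapped, and the exact permutation p was 0.0571 for cKO_DSS against cKO and 0.0857 for WT_DSS against WT. Over mt-Nd1, mt-Nd2, mt-Nd5, mt-Nd6 and mt-Cytb, abundant messenger RNAs without a long nuclear copy, a setting chosen after seeing the data that left out the scarce mt-Atp8, the differences were -2.23 and -1.06 percentage points, with an exact permutation p of 0.0286 for each. Without cKO_DSS 3 and 4, the difference between cKO_DSS and WT_DSS became 0.140 percentage points, turning its sign.

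**Figure D3:**
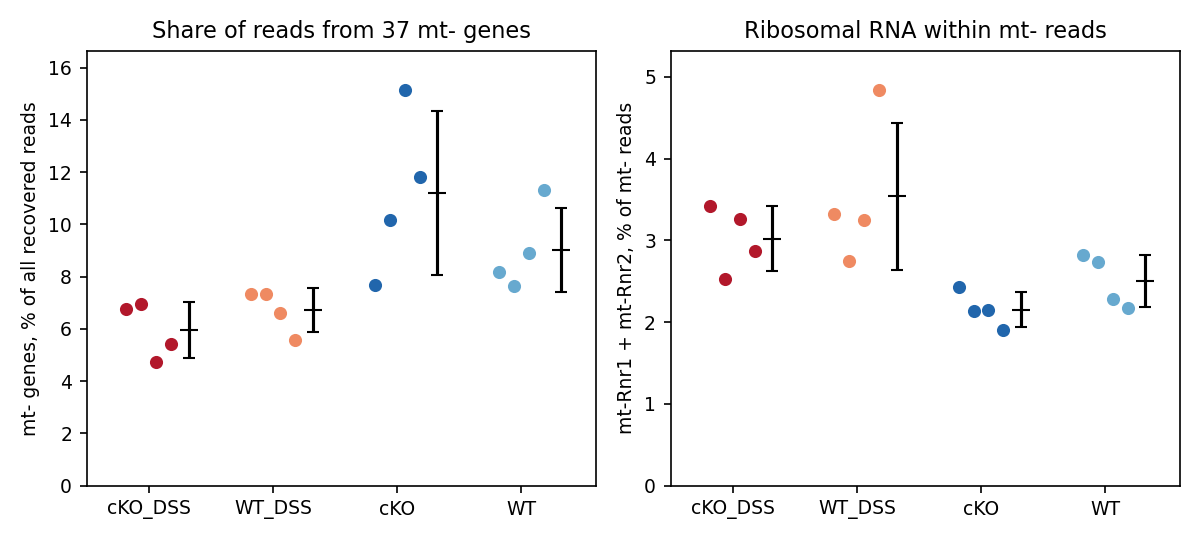
Left, percentage of all recovered reads that came from the 37 mt- genes, and right, percentage of those reads that came from the 2 ribosomal RNAs, by group; points are libraries 1 to 4 from left to right, and the bar gives the mean ± SD (n = 4). The DSS libraries span 4.74 to 7.34% on the left and the water libraries 7.66 to 15.1%.

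Fewer cells of a type rich in mitochondrial RNA and less of this RNA per cell cannot be told apart in such bulk samples. Markers of some other cell types moved with DSS. Over all 13255 tested genes, 1070 were called higher in cKO_DSS against cKO and 1990 in WT_DSS against WT. Of the monocyte and macrophage markers, 3 of 7 passed the filter and all 3 rose in both DSS comparisons, with summed levels of 68.4 to 101 FPKM in cKO_DSS, 63.9 to 78.4 in WT_DSS, 36.5 to 56.6 in cKO and 33.0 to 46.4 in WT libraries. Of the fibroblast markers, 4 of 7 passed the filter, and 3 rose in cKO_DSS against cKO and 4 in WT_DSS against WT, with summed levels of 7.48 to 9.36, 11.1 to 13.6, 3.94 to 5.67 and 2.97 to 4.48 FPKM in the same order of groups. Of the 10 epithelial markers, all tested, 2 (20%) rose and 0 fell in cKO_DSS against cKO, with a median log2 difference of 0.15. In WT_DSS against WT, 0 of the 10 rose and 1 (10%) fell, with a median of -0.12. Of 4 tested T cell markers and 1 tested smooth muscle marker, 0 were called in either DSS comparison. Of all genes, 14.7% were called in cKO_DSS against cKO and 28.5% in WT_DSS against WT. The 1 tested B and plasma cell marker rose in WT_DSS against WT only. Neutrophil markers were at or below 0.497 FPKM in sum in every library. The part of these other cells in the mitochondrial share was not tested.

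Gene by gene, limma on log2(FPKM + 1) over all 13255 genes that passed the filter was used, of which 31 were mt- genes. A fold change on this scale understates the change of low genes. In cKO_DSS against cKO, 11 of the 31 fell at a Benjamini-Hochberg adjusted p under 0.05 and none rose, where 14.7% of all genes were called and 6.64% were called lower. Those that fell were mt-Co1, mt-Cytb, mt-Nd1, mt-Nd2, mt-Nd3, mt-Nd4, mt-Nd4l, mt-Rnr1, mt-Tc, mt-Tn and mt-Tp. In WT_DSS against WT, 4 of the 31 fell, namely mt-Nd1, mt-Nd4l, mt-Tg and mt-Th, and none rose, where 28.5% of all genes were called and 13.5% were called lower, so that this count was close to the background. Libraries of the compared groups did not overlap for 5 mt- genes in each comparison, all lower with DSS, where 8.97% of all genes were so in cKO_DSS against cKO and 12.8% in WT_DSS against WT. The median log2 difference of the 31 genes was -0.82 in cKO_DSS against cKO and -0.40 in WT_DSS against WT, beside medians of -0.01 and -0.01 over all genes. With FPKM rescaled to the reads outside the mitochondrial genes, 12 and 4 mt- genes fell, while calls over all genes turned from 1070 higher and 880 lower to 707 higher and 1453 lower in cKO_DSS against cKO, and from 1990 higher and 1788 lower to 1509 higher and 2201 lower in WT_DSS against WT.

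Both counts leaned on single libraries. In cKO_DSS against cKO, leaving out 1 library gave 5 to 12 called genes, with 5 without cKO 4 or cKO_DSS 3, 6 without cKO 3 or cKO_DSS 4 and 7 without WT 3, and leaving out cKO_DSS 3 and 4 together gave 0. Of all genes, 9.91% to 16.4% were called with 1 library left out, and 13.7% without cKO_DSS 3 and 4. In WT_DSS against WT it gave 0 to 5, with 0 without WT 4, 1 without WT 3 and 2 without WT_DSS 1, 2 or 4. GC content ran with the fold changes of WT_DSS against WT and of the genotype comparisons. It hardly did so in cKO_DSS against cKO, where the cKO_DSS libraries tilted in opposite directions. The median GC content was 35.7% for the mt- genes and 49.5% for all genes, and Spearman's rho between GC content and log2 fold change across 12867 genes, which are not independent replicates, was 0.0546 in cKO_DSS against cKO and -0.53 in WT_DSS against WT. The genotype comparisons had a rho of 0.375 in cKO_DSS against WT_DSS and -0.523 in cKO against WT, and the interaction had 0.586. Per library, rho was taken between GC content and the deviation of each gene from its mean over all libraries. It was -0.255 and -0.375 in cKO_DSS 1 and 2, but 0.399 and 0.388 in cKO_DSS 3 and 4. In cKO libraries it was -0.226 to 0.0052. A low rho in cKO_DSS against cKO is therefore no sign that its libraries were free of a GC tilt. After a loess correction for GC content, 11 mt- genes were called in cKO_DSS against cKO and 8 in WT_DSS against WT, where 19.5% and 19.997% of all genes were called.

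The complex III gene mt-Cytb gave the smallest p of the mt- genes. Its levels were 7886, 9464, 5641 and 6394 FPKM in cKO_DSS libraries 1 to 4, against 11471, 16392, 26292 and 19068 FPKM in cKO libraries 1 to 4. They were 9978, 10803, 9009 and 5988 FPKM in WT_DSS libraries, against 10773, 11620, 13257 and 17859 FPKM in WT libraries. The cKO_DSS and cKO libraries did not overlap, while WT_DSS 2 lay slightly above WT 1. The log2 fold change in limma was -1.28 ± 0.27 (SE, adjusted p = 0.00533) in cKO_DSS against cKO and -0.59 ± 0.27 (adjusted p = 0.109) in WT_DSS against WT.

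Complex I genes were the largest group among those that fell, but complex I also has more mt- messenger RNAs than any other complex. mt-Nd1, which showed the change in both genotypes, had 4631, 5112, 3353 and 3792 FPKM in cKO_DSS against 5670, 8130, 13950 and 10211 FPKM in cKO libraries. It had 4980, 5038, 4626 and 3706 FPKM in WT_DSS against 7132, 6604, 7607 and 9712 FPKM in WT libraries, and neither pair of groups overlapped. Its log2 fold change was -1.11 ± 0.24 (limma adjusted p = 0.00646) in cKO_DSS against cKO and -0.75 ± 0.24 (adjusted p = 0.0291) in WT_DSS against WT. This gene shares no 50-base window with a nuclear transcript.

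mt-Nd4 had 3078, 3292, 1635 and 1952 FPKM in cKO_DSS against 3288, 4563, 7649 and 5696 FPKM in cKO libraries, and mt-Nd2 had 3109, 3377, 1593 and 1789 FPKM in cKO_DSS against 2814, 3616, 6641 and 5398 FPKM in cKO libraries. For both, cKO_DSS 3 and 4 were the lowest of the 16 libraries, and the cKO_DSS and cKO groups overlapped through cKO_DSS 1 or 2. Their log2 fold changes in cKO_DSS against cKO were -1.08 (limma adjusted p = 0.0143) and -0.90 (adjusted p = 0.0444). mt-Nd4 had 3285, 3552, 2754 and 2375 FPKM in WT_DSS against 3517, 3409, 3838 and 5066 FPKM in WT libraries, and mt-Nd2 had 3259, 3190, 2336 and 3201 FPKM in WT_DSS against 3538, 2843, 3036 and 4293 FPKM in WT libraries. Both overlapped, and neither passed the test there, with log2 differences of -0.40 and -0.19.

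The short complex I genes mt-Nd3 and mt-Nd4l, both with nuclear copies, were low in DSS libraries. mt-Nd3 had 36.6, 11.2, 15.1 and 6.71 FPKM in cKO_DSS against 27.7, 46.3, 62.1 and 52.7 FPKM in cKO libraries, with cKO_DSS 1 above cKO 1. It had 29.6, 29.6, 31.2 and 30.1 FPKM in WT_DSS against 61.9, 46.1, 48.5 and 86.6 FPKM in WT libraries, groups that did not overlap. Its log2 fold change was -1.58 (limma adjusted p = 0.0103) in cKO_DSS against cKO and -0.94 (adjusted p = 0.0653) in WT_DSS against WT. mt-Nd4l had 27.3, 31.0, 19.4 and 22.7 FPKM in cKO_DSS against 32.4, 40.4, 124 and 61.0 FPKM in cKO libraries, and 33.7, 34.0, 24.9 and 30.4 FPKM in WT_DSS against 87.6, 71.2, 42.6 and 116 FPKM in WT libraries. The groups of neither pair overlapped, and the log2 fold changes were -1.15 (limma adjusted p = 0.0372) in cKO_DSS against cKO and -1.26 (adjusted p = 0.0163) in WT_DSS against WT. When the reads of the nuclear copies were added to their mitochondrial partners, a setting chosen after seeing the data, mt-Nd3 kept its call in cKO_DSS against cKO and mt-Nd4l lost its call in both comparisons. In that setting 11 mt- genes were called in cKO_DSS against cKO, mt-Co2 among them, and 3 in WT_DSS against WT, beside 14.7% and 28.5% of all genes.

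In complex IV, mt-Co1 had 24232, 26827, 18715 and 20944 FPKM in cKO_DSS against 25846, 34844, 54519 and 40085 FPKM in cKO libraries, with cKO_DSS 2 just above cKO 1. It had 27961, 26969, 25865 and 19483 FPKM in WT_DSS against 29050, 25341, 31614 and 40347 FPKM in WT libraries, which overlapped. The log2 fold change was -0.74 ± 0.23 (limma adjusted p = 0.0441) in cKO_DSS against cKO and -0.33 ± 0.23 (adjusted p = 0.304) in WT_DSS against WT. Under 30 other settings the call in cKO_DSS against cKO held in 11 for mt-Co1, 12 for mt-Nd2, 12 for mt-Tp, 27 for mt-Cytb and 28 for mt-Nd1. In ATP synthase, mt-Atp6, a proton channel subunit with a nuclear copy, had 275, 165, 118 and 533 FPKM in cKO_DSS against 199, 524, 477 and 293 FPKM in cKO libraries, and 353, 211, 280 and 220 FPKM in WT_DSS against 409, 470, 360 and 698 FPKM in WT libraries. The WT_DSS and WT libraries did not overlap, but the gene passed the test in neither DSS comparison, with log2 differences of -0.59 (limma adjusted p = 0.37) in cKO_DSS against cKO and -0.85 (adjusted p = 0.126) in WT_DSS against WT.

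mt-Nd6, from the opposite strand, had 2347, 2417, 894 and 981 FPKM in cKO_DSS against 1514, 1929, 3271 and 3225 FPKM in cKO libraries, and 1411, 1095, 800 and 1845 FPKM in WT_DSS against 1802, 1180, 1537 and 1812 FPKM in WT libraries. The groups overlapped in both pairs, and cKO_DSS 1 and 2 stood well above cKO_DSS 3 and 4. Its log2 differences were -0.66 (limma adjusted p = 0.25) in cKO_DSS against cKO and -0.34 (adjusted p = 0.499) in WT_DSS against WT. Counting is not stated to use strand, and mt-Nd6 overlaps mt-Nd5 by 14 bases. Of the remaining messenger RNAs, mt-Nd5, mt-Co2, mt-Co3 and mt-Atp8 passed the test in none of the comparisons. mt-Nd5 did not overlap between WT_DSS and WT libraries. The range of mt-Co3 within DSS groups was wide, at 66.5 to 950 FPKM in cKO_DSS and 94.3 to 890 FPKM in WT_DSS libraries.

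**Figure D4:**
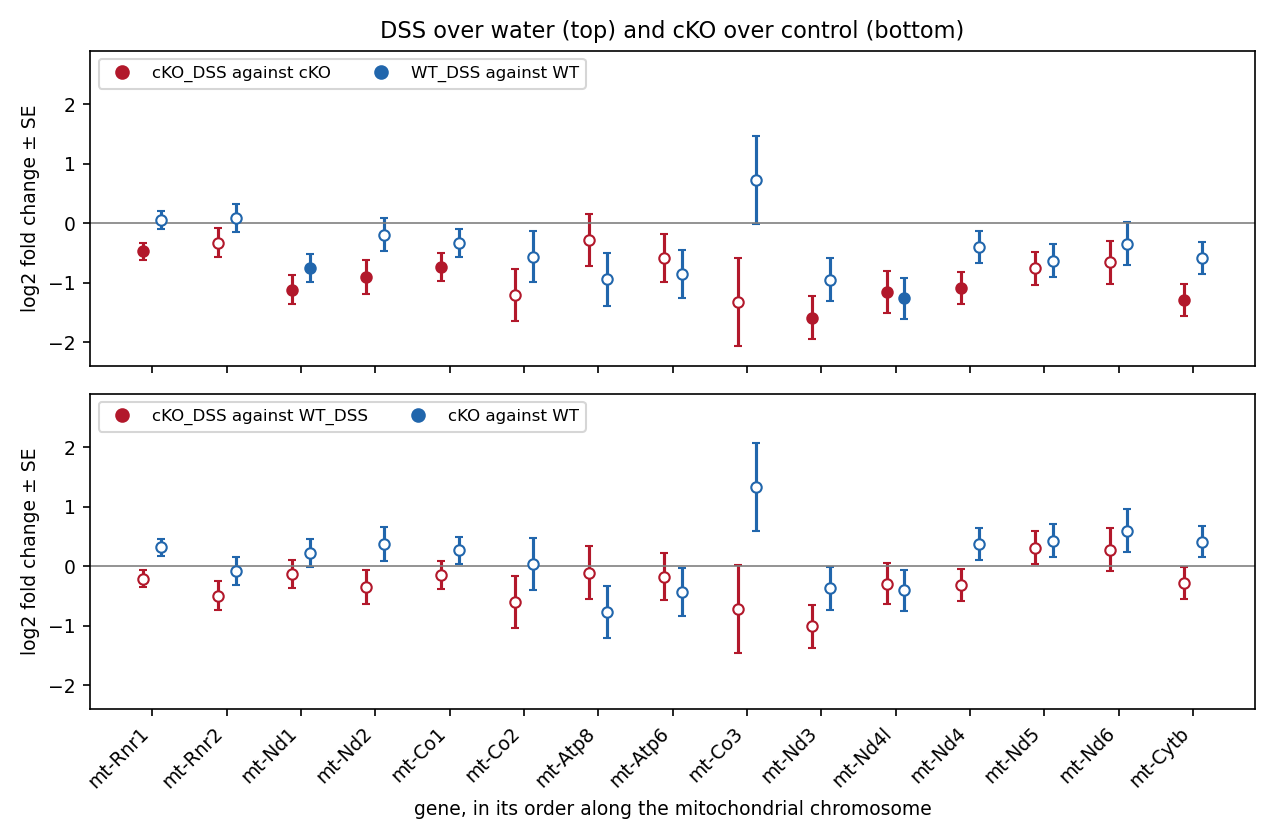
Log2 fold change ± SE from limma on log2(FPKM + 1) for the 15 messenger and ribosomal RNAs, in gene order; top, DSS against water in each genotype, and bottom, cKO against control with and without DSS. Filled points are called at adjusted p under 0.05: 8 in cKO_DSS against cKO and 2 in WT_DSS against WT, all below 0, and 0 in the bottom panel.

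The ribosomal RNAs had smaller log2 differences with DSS than every messenger RNA except mt-Atp8 in cKO_DSS against cKO. mt-Rnr1 had 864, 814, 773 and 768 FPKM in cKO_DSS against 956, 982, 1566 and 1051 FPKM in cKO libraries, groups that did not overlap, and 1046, 891, 961 and 828 FPKM in WT_DSS against 895, 805, 864 and 1016 FPKM in WT libraries. It fell by 0.47 ± 0.14 on the log2 scale in cKO_DSS against cKO (limma adjusted p = 0.0399) and differed by 0.06 ± 0.14 in WT_DSS against WT (adjusted p = 0.791). mt-Rnr2 had 924, 678, 496 and 491 FPKM in cKO_DSS against 536, 740, 1201 and 787 FPKM in cKO libraries, and 919, 738, 770 and 1148 FPKM in WT_DSS against 899, 772, 723 and 931 FPKM in WT libraries. Its groups overlapped in both pairs, and its log2 differences of -0.32 and 0.09 did not pass the test.

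Within the mitochondrial reads, the ribosomal RNAs accordingly took a larger share after DSS in cKO. That share was 3.02 ± 0.398% in cKO_DSS against 2.15 ± 0.215% in cKO libraries (SD, n = 4 each), with no overlap and an exact permutation p of 0.0286, the smallest possible, or 0.143 adjusted over 5 comparisons. It was 3.54 ± 0.902% in WT_DSS against 2.50 ± 0.322% in WT libraries, with an exact permutation p of 0.0571. The genotype differences of -0.517 percentage points with DSS and -0.349 percentage points on water had exact permutation p of 0.429 and 0.143, and the interaction one of 0.831.

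Proportions within the mitochondrial genome also differed between DSS and water libraries, and of those given here the ratio of mt-Nd1 to mt-Co1 was without overlap in both genotypes. They were looked at with all values in view and are given without a test. The ratio of mt-Nd1 to mt-Co1 FPKM was 0.178 to 0.191 in the 8 DSS libraries and 0.219 to 0.261 in the 8 water libraries. It was 0.191, 0.191, 0.179 and 0.181 in cKO_DSS, 0.178, 0.187, 0.179 and 0.19 in WT_DSS, 0.219, 0.233, 0.256 and 0.255 in cKO and 0.246, 0.261, 0.241 and 0.241 in WT libraries. The mt-Cytb share of mitochondrial reads was 13.5 to 14.8% in cKO_DSS against 18.1 to 19.0% in cKO libraries, and 12.7 to 16.8% in WT_DSS against 15.3 to 18.3% in WT libraries. mt-Co1 took 56.1 to 61.9% of mitochondrial reads in cKO_DSS against 52.5 to 55.1% in cKO libraries, and 55.8 to 60.7% in WT_DSS against 53.9 to 56.6% in WT libraries, which overlapped. Between genotypes on water, the ratio of mt-Rnr2 to mt-Rnr1 FPKM was 0.561 to 0.767 in cKO against 0.837 or more in WT libraries, without overlap, whereas with DSS it was 0.639 to 1.07 in cKO_DSS and 0.802 to 1.39 in WT_DSS libraries, which overlapped.

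**Figure D5:**
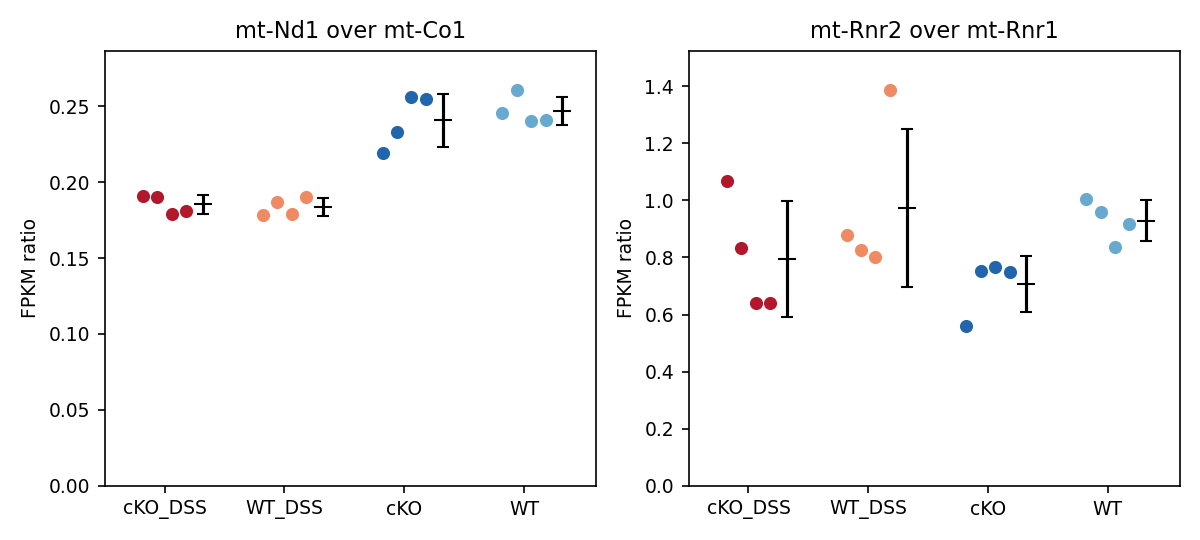
Ratio of mt-Nd1 to mt-Co1 FPKM (left) and of mt-Rnr2 to mt-Rnr1 FPKM (right) by group; points are libraries 1 to 4 from left to right and bars are mean ± SD (n = 4). On the left all DSS libraries lie at or below 0.191 and all water libraries at or above 0.219, and on the right the cKO libraries lie below the WT libraries.

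Transfer RNAs that passed the test rested on few reads, apart from mt-Tp. mt-Tp had 1455, 89, 37 and 53 reads in cKO_DSS against 466, 657, 1289 and 1017 reads in cKO libraries, so that 3 of the 4 cKO_DSS libraries lay below all cKO libraries and cKO_DSS 1 lay above them. It had 820, 804, 1088 and 1150 reads in WT_DSS against 2524, 507, 767 and 1228 reads in WT libraries, which overlapped. Its log2 fold change was -2.74 ± 0.87 (limma adjusted p = 0.0474) in cKO_DSS against cKO and -0.03 ± 0.87 (adjusted p = 0.986) in WT_DSS against WT.

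The cysteine transfer RNA mt-Tc had 41, 13, 7 and 8 reads in cKO_DSS against 34, 53, 72 and 54 reads in cKO libraries, and 29, 39, 66 and 25 reads in WT_DSS against 73, 55, 49 and 133 reads in WT libraries. The asparagine transfer RNA mt-Tn had 9, 2, 2 and 9 reads in cKO_DSS against 19, 17, 19 and 25 reads in cKO libraries, and 10, 19, 20 and 3 reads in WT_DSS against 30, 10, 14 and 26 reads in WT libraries. In cKO_DSS against cKO the mt-Tn groups did not overlap and the mt-Tc groups did through cKO_DSS 1, and the log2 fold changes were -1.96 (limma adjusted p = 0.0143) for mt-Tc and -1.99 (adjusted p = 0.0225) for mt-Tn. The glycine transfer RNA mt-Tg had 9, 9, 16 and 9 reads in WT_DSS against 14, 26, 63 and 84 reads in WT libraries, and 14, 11, 47 and 14 reads in cKO_DSS against 14, 17, 33 and 34 reads in cKO libraries. The histidine transfer RNA mt-Th had 8, 0, 3 and 7 reads in WT_DSS against 4, 34, 26 and 39 reads in WT libraries, and 8, 7, 11 and 18 reads in cKO_DSS against 11, 14, 19 and 15 reads in cKO libraries. Both overlapped between WT_DSS and WT, in which their log2 fold changes were -1.65 (limma adjusted p = 0.032) for mt-Tg and -2.25 (adjusted p = 0.023) for mt-Th. The other 11 transfer RNAs that passed the filter passed the test in none of the comparisons.

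Genotype alone gave no called mitochondrial gene. In cKO_DSS against WT_DSS, limma called 0 of 31 mt- genes at the adjusted threshold, where 3.70% of all genes were called. There, 4 had an unadjusted p under 0.05, and limma voom on the recovered reads called 1, mt-Tp, at a log2 difference of -3.06. That fit called 4.55% of all genes. In limma on FPKM mt-Tp differed by -3.01 ± 0.87 (adjusted p = 0.0688), mt-Tc by -1.52 ± 0.48 (adjusted p = 0.0938) and mt-Nd3 by -1.01 ± 0.37 (adjusted p = 0.137), and without cKO_DSS 1 these 3 were called, where 6.66% of all genes were. In cKO against WT, limma called 0 of 31, where 0.0905% of all genes were called, with 2 at an unadjusted p under 0.05 and 0 called by voom. The log2 differences of the 13 messenger RNAs there ran from -0.77 for mt-Atp8 to 1.34 for mt-Co3, which had 586, 395, 826 and 319 FPKM in cKO against 264, 172, 160 and 204 FPKM in WT libraries without overlap (adjusted p = 0.34). It was the 1 mt- gene of 31 without overlap there, where 7.85% of all genes were higher in cKO without overlap. For the interaction, limma called 0 of 31, where 0.151% of all genes were called, with 2 at an unadjusted p under 0.05 and 0 by voom, so that the DSS effect was not shown to differ between genotypes. With sample quality weights 4 mt- genes (12.9%) were called in cKO_DSS against WT_DSS, where that fit called 26.3% of all genes, and 7 (22.6%) for the interaction, where it called 28.1%. Both lay below the background of that fit. Without cKO_DSS 1 the interaction had 1, mt-Tp, where 2.98% of all genes were called. The genotype comparisons share their libraries with the DSS comparisons.

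Of the nuclear genes that transcribe or maintain the mitochondrial genome, those called with DSS fell, except Tfam in WT_DSS against WT. Of 9 genes for its transcription, 1 rose and 1 fell in WT_DSS against WT: the packaging factor Tfam by 0.34 and the mitochondrial RNA polymerase Polrmt by -0.32 on the log2 scale (limma adjusted p = 0.0314 and 0.0174). In cKO_DSS against cKO, 1 of the 9 fell, Mterf2, by -0.38 (adjusted p = 0.0253). Of 13 genes for replication and upkeep of mitochondrial DNA, 4 fell in WT_DSS against WT, among them the topoisomerase Top1mt and the polymerase Polg, and 2 fell in cKO_DSS against cKO, the nuclease Dna2 and the polymerase accessory subunit Polg2. The median log2 difference of the transcription genes was -0.17 in cKO_DSS against cKO and -0.02 in WT_DSS against WT, and that of the replication genes was -0.23 and -0.21. No gene of either list was called in cKO_DSS against WT_DSS, where 3.70% of all genes were called, a low share for such short lists.

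Of 33 tested genes for processing, modification and decay of mitochondrial RNA, 0 rose and 6 fell in cKO_DSS against cKO, with a median log2 difference of -0.22, and 2 rose and 9 fell in WT_DSS against WT, with a median of -0.05. Elac2, the nuclease that cuts the 3′ ends of transfer RNAs, fell by 0.33 (limma adjusted p = 0.0197) in cKO_DSS against cKO and by 0.27 (adjusted p = 0.0327) in WT_DSS against WT. The RNase P nuclease Prorp fell by 0.33 (adjusted p = 0.0228) in cKO_DSS against cKO. The helicase of the RNA degradosome Supv3l1 fell in both comparisons, while its partner Pnpt1 rose by 0.63 (adjusted p = 0.0131) in WT_DSS against WT.

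Among 71 tested mitochondrial ribosomal proteins, the partners of the ribosomal RNAs, 0 rose and 5 fell in cKO_DSS against cKO, including Mrps21, which fell by 1.04 (limma adjusted p = 0.0306), and 3 rose and 24 fell in WT_DSS against WT, including Mrpl11, which fell by 0.71 (adjusted p = 0.00158). The medians were -0.18 and -0.13 on the log2 scale. In cKO_DSS against WT_DSS 1 of the 71 fell, Mrpl18. Of 25 nuclear subunits of the complexes that hold mitochondrially encoded members, 7 (28%) fell in cKO_DSS against WT_DSS and 0 rose, with a median log2 difference of -0.28, where 3.70% of all genes were called and 1.67% were called lower. The largest of these was Cox6c of complex IV, which fell by 1.65 (limma adjusted p = 0.0198), followed by Ndufa1 of complex I, which fell by 1.12 (adjusted p = 0.0139). Calls in cKO_DSS against WT_DSS leaned on single libraries. Of all genes, 0.691% to 6.66% were called there with 1 library left out, and 0.245% without cKO_DSS 3 and 4. Its fold changes also ran with GC content, at a Spearman's rho of 0.375. How the 7 calls depend on these was not tested. In cKO_DSS against cKO 4 of the 25 fell and 0 rose, and in WT_DSS against WT 6 fell, with a median of -0.02 over the list, among them Uqcrb of complex III, which fell by 0.70 (adjusted p = 0.00124), and Cox8a of complex IV, which fell by 1.33 (adjusted p = 0.0113), and 1 rose, Uqcrc2 by 0.28.

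Markers of mitochondrial mass and import gave 0 rises and 1 fall among 15 in cKO_DSS against cKO, the chaperone Hspa9, which fell by 0.40 (limma adjusted p = 0.00335), and 2 rises and 4 falls in WT_DSS against WT, including the import pore Tomm40, which fell by 0.67 (adjusted p = 0.00494), and the cristae protein Immt, which rose by 0.30 (adjusted p = 0.0249). Of 10 regulators of mitochondrial biogenesis, Yy1 rose in both DSS comparisons, by 0.29 (adjusted p = 0.0185) in cKO_DSS against cKO and 0.38 (adjusted p = 0.00367) in WT_DSS against WT, and in WT_DSS against WT Gabpa rose by 0.37 and Esrra fell by 0.64. Beside the 28.5% of all genes called in WT_DSS against WT, these lists had 22.2% for transcription, 28% for the nuclear subunits, 30.0% for biogenesis, 30.8% for replication, 33.3% for RNA processing, 38.0% for ribosomal proteins and 40.0% for mass and import. In cKO_DSS against cKO, where 14.7% of all genes were called, they had 6.67% for mass and import to 18.2% for RNA processing. Counting falls alone, where 13.5% of all genes were called lower in WT_DSS against WT, the ribosomal proteins had 33.8%, the replication genes 30.8%, the RNA processing genes 27.3% and the nuclear subunits 24%. Where 6.64% of all genes were called lower in cKO_DSS against cKO, the RNA processing genes had 18.2%, the nuclear subunits 16%, the replication genes 15.4% and the ribosomal proteins 7.04%. In cKO against WT, limma called 0 of the 176 tested genes of these 7 lists, with 34 at an unadjusted p under 0.05 and 1 called by voom, Uqcrb, a complex III subunit. Of all genes, limma called 0.0905% there and voom 0.211%.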

How the data were processed

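Total RNA of 16 colonic epithelial libraries was sequenced, 4 in each of 4 groups taken from the labels. The authors deposited FPKM per gene with gene lengths. Per the submitters' processing notes, the build was mm10 and featureCounts 1.5.0-p3 and DESeq2 1.20.0 were among the tools; the aligner, annotation release, strand setting and treatment of reads with several matches were not given in the sources used. FPKM times gene length gave whole reads (100% of values within 0.05 of a whole number), 13911823 to 16414914 per library, from which shares were computed.

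The 13255 genes that reached 1 FPKM in 4 or more libraries were tested with limma 3.58.1 in R 4.3.3 on log2(FPKM + 1), with 4 group means over 16 libraries and Benjamini-Hochberg adjustment over all tested genes. Shares were compared by exact two-sided permutation. limma voom on recovered reads was an alternative, as were other pseudocounts, filters, normalizations, a GC correction, quality weights, a replicate block and leaving out libraries. Scripts were tested on simulated data. Values per library were to be given for called mt- genes, both ribosomal RNAs, the most abundant messenger RNA of each complex and mt-Nd6, with the members of smallest p as examples of each nuclear list. mt-Co3, Pnpt1, Uqcrc2, Malat1 and Neat1 were named after their values were seen. Members and lists were chosen with earlier results of these data known. Shared sequence was found by 50-base windows in GENCODE M21 transcripts.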

Additional observations from a re-analysis of the deposited data

Results flagged for a closer look

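Among 72 sets of 4 libraries examined, 6 had 1 library far from the other 3 of its group, meaning that its gap to the nearest of them as a part of the group's range exceeded the critical value of Dixon's test. Chance gives this in about 1 in 20 groups. In cKO_DSS 1, mt-Tp was at 1465 FPKM, against 35.0 to 85.0 FPKM in the other cKO_DSS libraries, and mt-Tc was at 41.9 FPKM, against 6.73 to 12.6 FPKM. In cKO_DSS 3, mt-Tg was at 43.8 FPKM, against 10.3 to 13.9 FPKM in the other cKO_DSS libraries. In WT_DSS 3, mt-Tg was at 16.3 FPKM, against 9.11 to 9.54 FPKM, and mt-Nd2 was at 2336 FPKM, against 3190 to 3259 FPKM in the other WT_DSS libraries. In cKO 3, which also had the highest mitochondrial share of all libraries, mt-Rnr1 was at 1566 FPKM, against 956 to 1051 FPKM.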

How the results depend on the processing

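The mitochondrial share kept its direction in every alternative tried for DSS against water. With the implied library size the differences were -5.21 (p = 0.0571) in cKO_DSS against cKO and -2.13 percentage points (p = 0.0857) in WT_DSS against WT, by exact permutation. Same-numbered libraries correlated at -0.199 to 0.300, so the replicate numbers do not pair them. With the number as a replicate block the share differences were -5.23 and -2.31 and the ribosomal RNA share difference in cKO_DSS against cKO was 0.868, each with p = 0.125, the smallest that an exact permutation of 4 pairs allows. With this block in limma, 6 mt- genes (19.4%) were called in cKO_DSS against cKO, beside 14.3% of all genes. Leaving out 1 library gave share differences of -6.41 to -3.92 in cKO_DSS against cKO, -2.76 to -1.54 in WT_DSS against WT, -1.13 to -0.342 in cKO_DSS against WT_DSS, 0.865 to 3.35 in cKO against WT and -4.10 to -1.61 for the interaction. Ribosomal RNA share differences were 0.735 to 1.03, 0.604 to 1.30, -0.780 to -0.0841, -0.458 to -0.244 and -0.432 to 0.265 in the same order.

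Called mt- genes in cKO_DSS against cKO numbered 2 without a filter (5.88%, beside 4.80% of all genes) and 4 with its 8 libraries alone (12.9%, beside 10.5%), both near the background. They numbered 0 without cKO_DSS 3 and 4 (beside 13.7%), and 5 to 12 with 1 library left out (beside 9.91% to 16.4%). In WT_DSS against WT they numbered 1 without a filter, 8 after GC correction, 0 without WT 4 and WT_DSS 2, and 0 to 5 with 1 library left out. In cKO_DSS against WT_DSS they numbered 1 with voom (3.23%, beside 4.55%) and 4 with quality weights (12.9%, beside 26.3% of all genes). With 1 library left out they numbered 0 to 3 there (beside 0.691% to 6.66%). For the interaction they numbered 7 with quality weights (22.6%, beside 28.1%) and 0 to 1 with 1 library left out (beside 0% to 9.63%). In cKO against WT they numbered 0 with any 1 library left out (beside 0.0152% to 0.843%). Of 450 single-gene alternatives, 330 kept the call, 120 lost it and 0 reversed. Those that lost it kept the sign of the difference. For mt-Co1 in cKO_DSS against cKO, however, the smallest difference was -1.8e-15 on the log2 scale, which has no real direction. Leaving out a library of a group outside the comparison, or adding the replicate block, left the difference itself unchanged. No reversal was possible in those settings. The cause of the lost calls was not tested. Low transfer RNA reads limit those genes.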
